A study of Mus musculus with 12 samples.

Results

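Nefl, Nefm, Nefh and Ina encode the neurofilament light, medium and heavy subunits and alpha-internexin, the polypeptides that build the neurofilaments of central neurons. All probe sets that the platform annotation assigns to these 4 genes were taken, 4 of the 18193 genes with a probe set of their own. They have 7 of the 45101 probe sets on the array: 2 for Nefl, 1 each for Nefm and Nefh, and 3 for Ina. None of the 7 carries a further gene symbol, each was brighter than the median probe set on all 12 arrays, and all passed the filter on low signals. Neurofilaments are made by neurons and not by astrocytes, the cell type the arrays are labelled with.

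The arrays measured amplified RNA of astrocytes taken by laser capture microdissection (LCM) from sections of the lumbar spinal cord of male mice, with 1 array per mouse and 3 mice in each of 4 groups. The groups were SOD1 G93A mice at 90 days and NTg mice at 90 days, and SOD1 G93A mice at 120 days and NTg mice at 120 days. The transgene of the SOD1 G93A mice is human SOD1 with the G93A mutation of familial amyotrophic lateral sclerosis (ALS), in the line B6SJL-Tg (SOD1 G93A) 1 Gur/J, bred onto a C57Bl/6 J Ola/Hsd background, and the NTg mice were littermates without it. The study called 90 days the symptomatic stage and 120 days the late stage. No group held transgenic mice with wild type human SOD1, so the mutation and the presence of a transgene cannot be told apart. The study's own text describes the captured RNA as coming from several cell types with a large astrocytic share, and neuronal transcripts were among those it found after capture.

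Neurofilaments are intermediate filaments that fill large myelinated axons and set their calibre. The light subunit can form a filament core by itself, while the medium and heavy subunits join it through their rod domains and reach out of the filament with long tails that are phosphorylated at many serines. Alpha-internexin appears earlier in development than the others and is the fourth subunit in the adult central nervous system. Large motor neurons hold many neurofilaments, neurofilament accumulations in motor axons are a known feature of ALS and of its SOD1 mouse models, and the light and heavy chains released into blood and cerebrospinal fluid are used as markers of axonal damage.

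At 120 days the signals of all 3 neurofilament subunits proper were lower in SOD1 G93A than in NTg mice: Nefm fell 3.20-fold, Nefh 2.46-fold and Nefl, by its probe set 1426255_at, 2.27-fold. These 3 of the 7 probe sets passed the test (limma, Benjamini-Hochberg adjusted p under 0.05 over the 26132 probe sets tested), where 3.86% of all probe sets tested passed in the lower and 3.6% in the higher direction. At a 2-fold change with an unadjusted p under 0.05, the threshold in the study's methods, 4 of 7 were called, these 3 and Nefl 1454672_at, where 7.52% of all probe sets tested reached that in the lower direction. The study's own enrichment analysis, on its own expression values, placed the neurofilament cytoskeleton among the categories of its down-regulated late-stage transcripts. The 3 Ina probe sets and Nefl 1454672_at had values below 0 that did not pass. In all 7 probe sets the 3 SOD1 G93A arrays of 120 days lay below the 3 NTg arrays, a separation in that direction found in 18.5% of all probe sets tested. At 90 days none of the 7 passed (0 of 7 by limma and by the unmoderated equal-variance test), where 0.023% of all probe sets tested passed in the lower direction and 0.115% in the higher. An unadjusted limma p under 0.05 was found at 90 days for 2 of 7 and for 1466 of the 26132 probe sets tested, in either direction.

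The arrays themselves differed in ways that bear on these values. On the deposited scale the median signal was 27.8 to 29.8 in SOD1 G93A and 24.9 to 30.4 in NTg mice at 90 days, and 38.8 to 55.2 in SOD1 G93A and 27.9 to 37.1 in NTg mice at 120 days. The 3 SOD1 G93A arrays of 120 days correlated less with one another (mean r with the others of the group 0.849 to 0.887) than the NTg arrays of that age (0.948 to 0.951), and replicate 3 had the lowest value. The log2 ratio of 3′ to 5′ actin probe sets, a measure of RNA length after amplification, was 3.87 to 5.49 in SOD1 G93A and 4.06 to 5.85 in NTg mice at 90 days, and 5.10 to 5.65 in SOD1 G93A and 4.95 to 5.58 in NTg mice at 120 days. Without the 2 arrays of 90 days with the highest ratio, SOD1 G93A replicate 1 and NTg replicate 3, the neurofilament count was 0 of 7 at 90 days and 4 of 7 at 120 days, a setting chosen after seeing the data. Fold changes below are differences of log2(signal + 7) after quantile normalization of the arrays within each age, and the error given with each is its standard error (SE) from the fit.

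**Figure D1:**
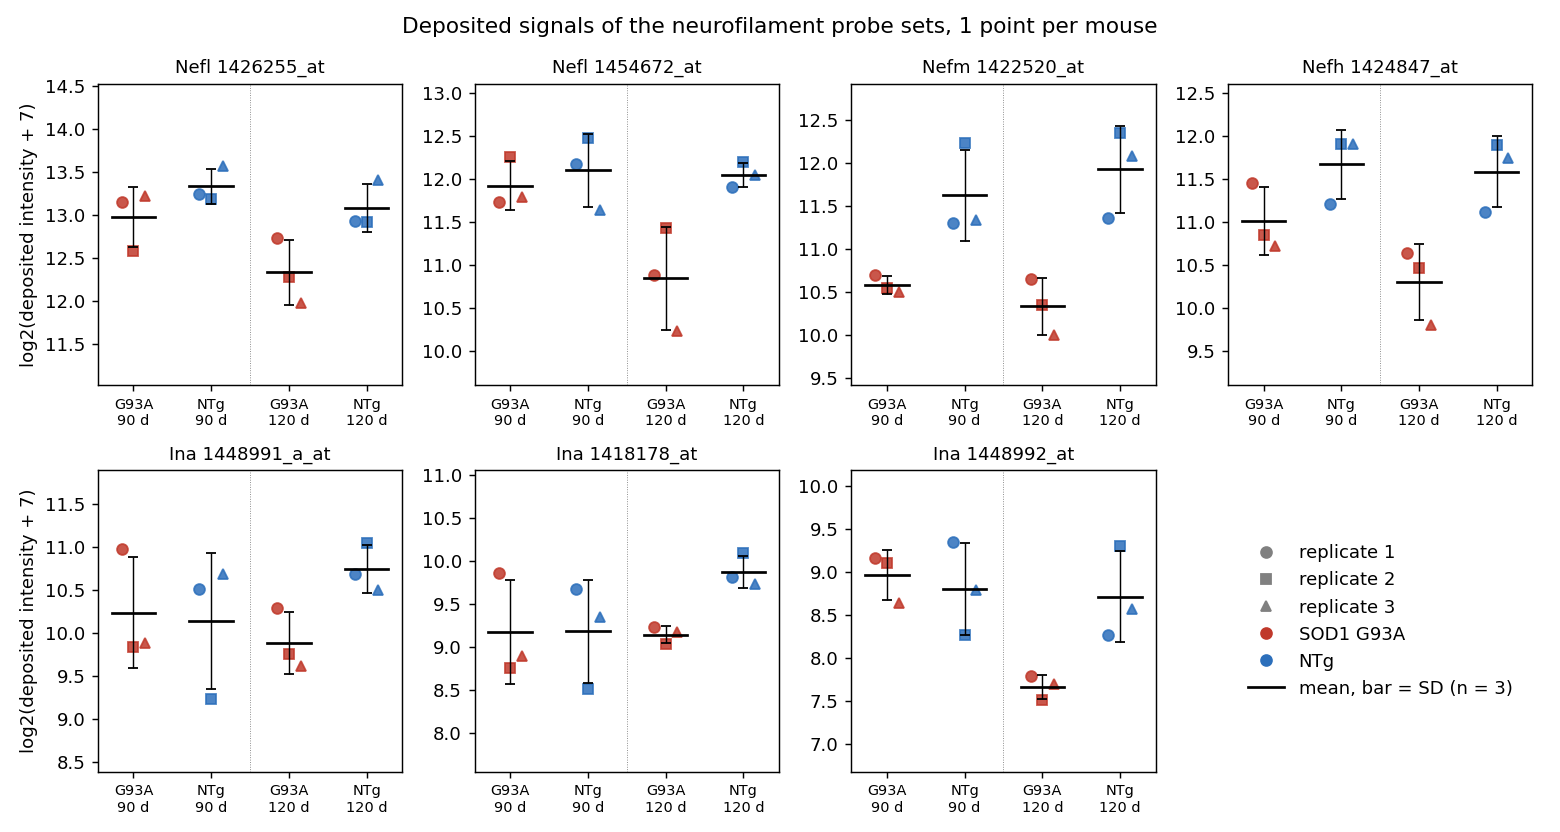
Deposited signals of the 7 neurofilament probe sets as log2(intensity + 7), with 1 point per mouse, SOD1 G93A in red left of NTg in blue at 90 and at 120 days, and the marker shape giving the replicate number. Horizontal lines are group means and bars are SDs (n = 3). At 120 days every red point lies below every blue point in each panel, and at 90 days this holds for Nefm alone on this scale.

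Nefl, the light subunit, was measured by 2 probe sets. The first, 1426255_at, read 9072, 6127 and 9516 in SOD1 G93A mice of 90 days, against 9729, 9328 and 12145 in NTg mice of that age. Its readings at 120 days were 6819, 4979 and 4044 in SOD1 G93A mice, against 7819.7, 7718 and 10870.1 in NTg mice. At 90 days the ranges overlapped, since SOD1 G93A replicate 3 was above NTg replicate 2. At 120 days they did not, and SOD1 G93A replicate 3 was the dimmest of the 12 arrays. This probe set stood between the 99.6th and the 99.996th percentile of its array, where few other probe sets remain above it and quantile normalization goes by few ranks.

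After normalization Nefl 1426255_at averaged 12.99 ± 0.31 in SOD1 G93A and 13.43 ± 0.29 in NTg mice at 90 days, in log2 units (SD, n = 3 each), and the difference of -0.45 (SE 0.29) did not pass (limma adjusted p = 1.00). At 120 days it averaged 12.21 ± 0.39 in SOD1 G93A and 13.40 ± 0.31 in NTg mice, and its log2 fold change was -1.18 (SE 0.29, 95% interval -1.81 to -0.56, limma adjusted p = 0.0276). The size of this fall depended on the scaling. With the values as deposited, on the log2 scale only, it was -0.75 (SE 0.28) and did not pass (limma adjusted p = 0.107).

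The other Nefl probe set, 1454672_at, read 3390.4, 4873 and 3533 in SOD1 G93A mice of 90 days, against 4621, 5701 and 3196 in NTg mice of that age. In mice of 120 days it read 1882, 2755 and 1199 in SOD1 G93A mice, against 3838, 4673 and 4208 in NTg mice. The groups overlapped at 90 days and were apart at 120 days, where the highest SOD1 G93A array stayed below the lowest NTg array. Its log2 fold change was -0.22 (SE 0.38, limma adjusted p = 1.00) at 90 days and -1.29 (SE 0.38, limma adjusted p = 0.0542) at 120 days, the second just outside the threshold. The estimate at 120 days was close to that of the first probe set (-1.18), with an SD of 0.56 in SOD1 G93A and 0.14 in NTg mice. With the values as deposited, 1454672_at was at -1.20 (SE 0.32) at 120 days and passed (limma adjusted p = 0.0342). It passed at that age in 9 of 27 other settings.

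Nefm, the medium subunit, had the lowest log2 fold change of the 7 probe sets at both ages. Its probe set 1422520_at read 1656, 1487 and 1444 in SOD1 G93A mice of 90 days, against 2527, 4809 and 2576 in NTg mice of that age. The late-stage readings were 1608, 1303 and 1017 in SOD1 G93A mice, against 2636, 5193 and 4323 in NTg mice. All 6 SOD1 G93A arrays lay below all 6 NTg arrays on this scale, which held for Nefm and for no other of the 7 probe sets, and for 0.968% of all probe sets tested. At both ages the NTg arrays spread more than the SOD1 G93A arrays.

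The log2 fold change of Nefm was -1.02 (SE 0.34) at 90 days, with 10.61 ± 0.07 in SOD1 G93A and 11.64 ± 0.67 in NTg mice. Its unadjusted p of 0.0100 in the limma fit became 0.575 after adjustment, and it was the one neurofilament probe set to reach a 2-fold change with an unadjusted p under 0.05 at that age, which 0.769% of all probe sets tested reached in the lower direction. At 120 days Nefm averaged 10.38 ± 0.17 in SOD1 G93A and 12.06 ± 0.54 in NTg mice, and its log2 fold change was -1.68 (SE 0.34, 95% interval -2.42 to -0.94, limma adjusted p = 0.0124).

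Nefh, the heavy subunit, which carries the longest tail, was measured by probe set 1424847_at. It read 2797, 1833 and 1681 in SOD1 G93A mice of 90 days, against 2355, 3820.2 and 3812 in NTg mice of that age. Late-stage arrays read 1585, 1411 and 888 in SOD1 G93A mice, against 2204, 3797 and 3409 in NTg mice. On the deposited scale the groups of 90 days overlapped, with SOD1 G93A replicate 1 above NTg replicate 1. After normalization these 2 arrays stood at 11.27 and 11.28, so that the groups did not overlap, as was the case for 5.56% of all probe sets tested in that direction. The log2 fold change of Nefh was -0.64 (SE 0.29) at 90 days, with an unadjusted p of 0.0471 in the limma fit and an adjusted p of 0.886. At 120 days it averaged 10.35 ± 0.29 in SOD1 G93A and 11.65 ± 0.40 in NTg mice, and its log2 fold change was -1.30 (SE 0.29, 95% interval -1.93 to -0.67, limma adjusted p = 0.0204).

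Ina, alpha-internexin, was measured by 3 probe sets, all annotated to the same transcript record. The first, 1448991_a_at, which was used where 1 probe set stands for the gene, read 2011, 912 and 941 in SOD1 G93A mice of 90 days, against 1452, 597 and 1635 in NTg mice of that age. At the late stage it read 1247, 857 and 777 in SOD1 G93A mice, against 1643, 2101 and 1442 in NTg mice. The arrays of 90 days were mixed, with the highest value in an SOD1 G93A mouse and the lowest in an NTg mouse, whereas those of 120 days were apart. Its log2 fold change was 0.14 (SE 0.38, limma adjusted p = 1.00) at 90 days and -0.79 (SE 0.38, limma adjusted p = 0.207) at 120 days.

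Probe set 1418178_at of Ina read 923, 424 and 469 in SOD1 G93A mice of 90 days, against 812, 359 and 644 in NTg mice of that age. By 120 days the signals were 594, 516 and 570.0 in SOD1 G93A mice, against 891, 1079.5 and 843 in NTg mice. As with the first, the groups overlapped at 90 days and were apart at 120 days. The log2 fold change was -0.01 (SE 0.34, limma adjusted p = 1.00) at 90 days and -0.57 (SE 0.34, limma adjusted p = 0.321) at 120 days, the smallest estimate of the 7 at that age.

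The last Ina probe set, 1448992_at, read 566, 545 and 390.3 in SOD1 G93A mice of 90 days, against 645, 303 and 434 in NTg mice of that age. Its late-stage signals were 214, 176 and 202 in SOD1 G93A mice, against 301, 625 and 374 in NTg mice. Its 3 SOD1 G93A arrays of 120 days had the lowest 3 of its 12 readings. The log2 fold change was 0.18 (SE 0.32, limma adjusted p = 1.00) at 90 days and -0.91 (SE 0.32, limma adjusted p = 0.0975) at 120 days. A miss of the threshold at 120 days did not show that Ina was unchanged: the 95% intervals of its 3 probe sets ran from -1.60 to 0.02, from -1.31 to 0.18 and from -1.60 to -0.22.

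Over the 7 probe sets, the median log2 fold change was -0.22 at 90 days, with 5 of 7 below 0, against -0.00 over all probe sets tested. At 120 days it was -1.18, with 7 of 7 below 0, against -0.07 over all probe sets tested. The median over all probe sets at 120 days moved with the scaling, to 0.07 with the values as deposited and -0.33 with each array centred on its median. Relative to it the neurofilament median lay at -1.11 under the normalization used and with the values as deposited, and at -1.04 when all 12 arrays were quantile-normalized together. Median centring shifts all probe sets of an array alike, so on this relative measure it repeats the deposited values by construction. The 7 probe sets came from 4 genes and the same 12 mice, so they were not independent readings.

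**Figure D2:**
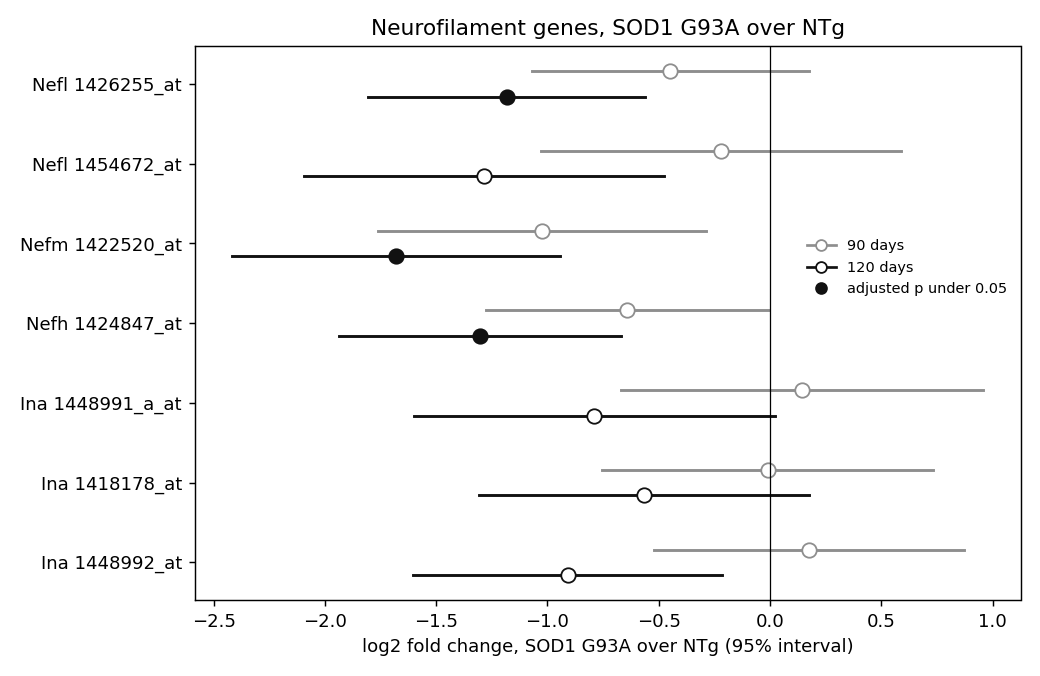
Log2 fold change between SOD1 G93A and NTg mice (SOD1 G93A over NTg) for each neurofilament probe set at 90 days (grey) and 120 days (black), with 95% intervals from the limma fit (3 mice per group) and filled points where the adjusted p was under 0.05. The 3 filled points, Nefl 1426255_at, Nefm and Nefh at 120 days, lie between -1.18 and -1.68, and the 3 Ina points lie between -0.01 and 0.18 at 90 days and between -0.91 and -0.57 at 120 days.

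Single arrays weighed on the calls at 120 days. Each of the 12 arrays was left out in turn. Of all probe sets tested, 467 to 2424 then passed (limma), against 1948 with all 12 arrays. Of the 7 neurofilament probe sets, 0 to 4 passed. Without NTg replicate 2 of 120 days none passed, and the adjusted p was 0.0787 for Nefl 1426255_at, 0.0700 for Nefm and 0.0986 for Nefh. Without NTg replicate 3 of that age none passed either, at 0.112, 0.0548 and 0.0834 in the same order of genes. Without SOD1 G93A replicate 3 of 120 days, the array that correlated least with its group, Nefm alone passed (limma adjusted p = 0.0411). The log2 fold changes moved less than the p-values: those of Nefm lay between -2.01 and -1.49 over the 12 fits, those of Nefh between -1.56 and -1.07 and those of Nefl 1426255_at between -1.34 and -0.90. Leaving out an array of 90 days could not move them, since the arrays were normalized within each age.

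**Figure D3:**
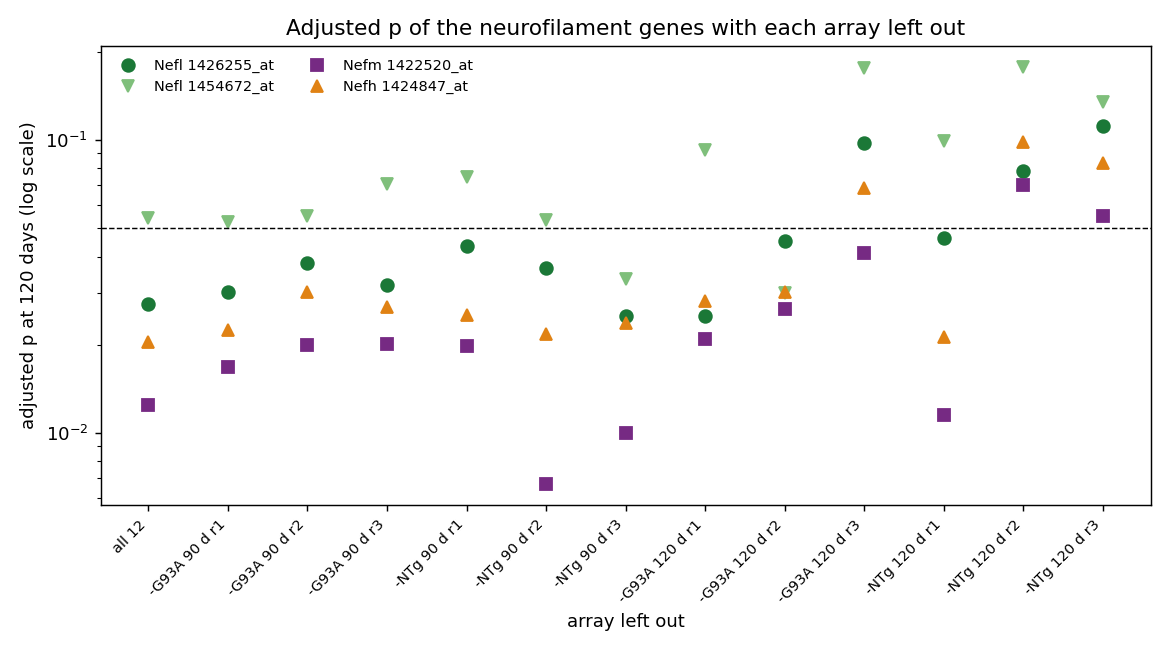
Benjamini-Hochberg adjusted p at 120 days (log axis) of the 4 probe sets of Nefl, Nefm and Nefh with all 12 arrays and with each array left out, named on the horizontal axis. The dashed line marks the threshold of 0.05. All 4 markers lie above the line without NTg replicate 2 or replicate 3 of 120 days, and Nefm alone lies below it without SOD1 G93A replicate 3 of 120 days.

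Whether the gap between the genotypes differed between the ages was tested as the effect at 120 days minus the effect at 90 days. The estimates were below 0 for all 7 probe sets, from -1.09 (SE 0.46) for Ina 1448992_at and -1.07 (SE 0.53) for Nefl 1454672_at to -0.55 (SE 0.49) for Ina 1418178_at. None passed (0 of 7 by limma and by the unmoderated equal-variance test), and over all probe sets tested 0% passed in either direction. An unadjusted limma p under 0.05 was found for 1 of 7, Ina 1448992_at, and for 2414 of the 26132 probe sets tested. At the methods' threshold the same Ina probe set was the 1 of 7 called, as were 3.7% of all probe sets tested in the lower direction. For Nefm and Nefh the difference was -0.66 (SE 0.48) and -0.66 (SE 0.42), so that a larger effect at 120 days was not shown for the genes that passed at that age alone.

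Levels of the ages themselves were compared after quantile normalization of all 12 arrays together. In SOD1 G93A mice, 1 of 7 probe sets passed between 120 and 90 days (3.94% of all probe sets tested passed in the lower and 3.06% in the higher direction): Ina 1448992_at averaged 7.72 ± 0.18 at 120 days and 8.91 ± 0.31 at 90 days, a log2 change of -1.19 (SE 0.32, limma adjusted p = 0.0436). This call held in 4 of the 12 fits with an array left out. The other 2 Ina probe sets had values of -0.10 (SE 0.38) and 0.23 (SE 0.34) that did not pass, so the probe sets of this gene disagreed. Nefl 1426255_at had -0.74 (SE 0.29, limma adjusted p = 0.130) and Nefm -0.04 (SE 0.35, limma adjusted p = 0.957), neither of which passed. In NTg mice none of the 7 passed (0 of 7 by limma), where 2.48% of all probe sets tested passed in the lower and 1.14% in the higher direction. An unadjusted limma p under 0.05 was found for 2 of 7, both of Ina, and for 5204 of the 26132 probe sets tested. The estimates of the 7 ran from -0.12 (SE 0.29) for Nefl 1426255_at to 0.82 (SE 0.38) for Ina 1448991_a_at. The array medians of SOD1 G93A mice were higher at 120 than at 90 days, those of NTg mice overlapped, and a difference between the sets of arrays of the ages cannot be told apart from age.

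Within a mouse, the subunits did not vary as 1 block. Over the 12 arrays, with each age centred on its mean, Nefm and Nefh had a Pearson r of 0.95, Nefl 1426255_at had 0.86 with Nefm and 0.83 with Nefh, and Ina 1448991_a_at had 0.26, 0.19 and 0.35 with Nefl 1426255_at, Nefm and Nefh. In the same order Ina 1418178_at had 0.20, 0.18 and 0.28, and Ina 1448992_at had 0.41, 0.44 and 0.48. These values hold the genotype difference. With each group centred on its mean, r was 0.78 between Nefm and Nefh, 0.48 between Nefl and Nefm and 0.31 between Nefl and Nefh. It was -0.37, -0.49 and -0.14 between Ina 1448991_a_at and Nefl, Nefm and Nefh. For Ina 1418178_at it was -0.41, -0.47 and -0.25 in that order, and for Ina 1448992_at -0.28, -0.07 and -0.05. NTg replicate 2 of 90 days had the lowest Ina 1448991_a_at reading of the 12 arrays (597) and the highest Nefm reading of 90 days (4809). The weight of that array in these values was not tested. The Ina probe sets kept to one another, at 0.91, 0.72 and 0.69, and the 2 Nefl probe sets had 0.44. These are descriptions over 12 arrays that share depth and amplification within each mouse.

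**Figure D4:**
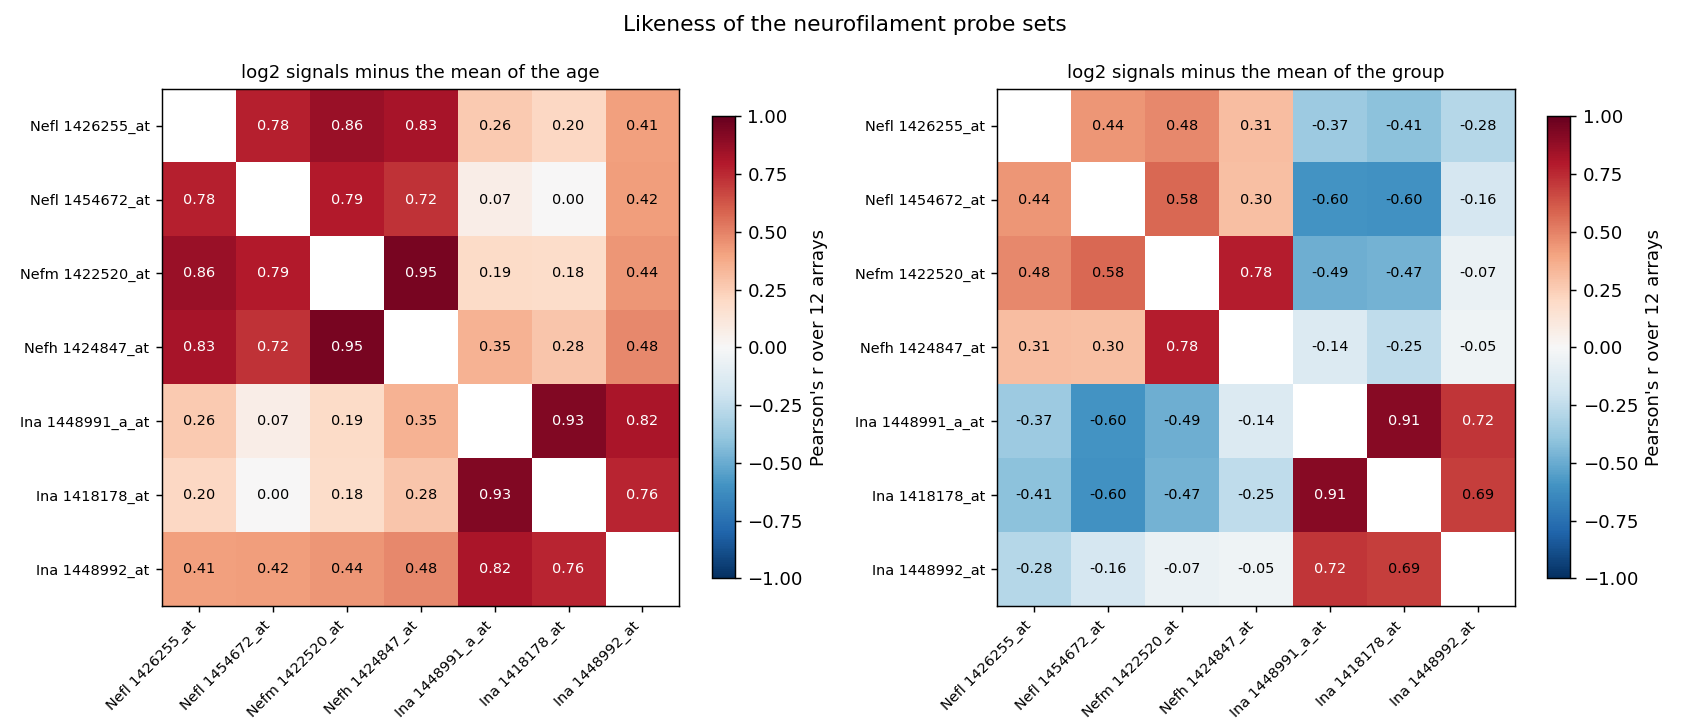
Pearson's r between the 7 neurofilament probe sets over 12 arrays, with log2 signals centred on the mean of each age (left) or of each group (right). In both panels Nefm and Nefh are alike (0.95 and 0.78) and the 3 Ina probe sets form a block of their own, with values below 0 against Nefl, Nefm and Nefh on the right.

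The effects of pairs of genes were set against each other as within-array differences of their brightest probe sets, which take out anything that scales a whole array. Averaged over the ages, the effect of genotype was lower for Nefm than for Ina by 1.03 log2 units (exact permutation test within ages, two-sided, p = 0.02, 0.06 after adjustment over the 6 pairs) and lower for Nefm than for Nefl by 0.54 (exact permutation p = 0.02, adjusted 0.06). It was lower for Nefm than for Nefh by 0.38 (exact permutation p = 0.04, adjusted 0.08). The 3 pairs without Nefm differed by 0.16 for Nefl over Nefh, -0.49 for Nefl over Ina and -0.65 for Nefh over Ina, with adjusted exact permutation p-values of 0.465, 0.288 and 0.0975. None of the 6 passed after adjustment, in a design whose 400 permutations allow no p below 0.005, and the comparison was chosen after the values had been seen. Under 17 other settings, also chosen after seeing the data, Nefm and Ina passed in 4 and Nefl and Nefm in 3. With the values as deposited or with median centring, both pairs had an adjusted exact permutation p of 0.03. Median centring cancels in a within-array difference, so it repeats the test on the deposited values and is counted again in these 4 and 3. Without NTg replicate 1 of 120 days it was 0.045 for Nefm and Ina and 0.03 for Nefl and Nefm, and without NTg replicate 3 of 90 days it was 0.015 for Nefm and Ina and for Nefm and Nefh, the 1 setting in which that pair passed.

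For each gene, the 5 genes of most similar pattern were taken by Pearson's r over the 12 arrays, with each age centred on its mean, among 12457 genes. The nearest to Nefl were Pja2 (0.98), Usp45 (0.97), Ncoa7 (0.96), Hspa14 (0.95) and Epb41l3 (0.95). The nearest to Nefm were Gm10419, Rimkla, Cacna2d3, Endod1 and Map9, at 0.96 to 0.97, and the nearest to Nefh were Cacna2d3, Endod1, Clasp1, Thrsp and Map9, at 0.96 to 0.98. Cacna2d3, an auxiliary subunit of voltage-gated calcium channels, Endod1 and the microtubule-associated Map9 stood in both lists, and each of Nefm and Nefh was among the 20 nearest of the other, at ranks 18 and 17. The nearest to Ina were Csnk1g1, Foxk2, Kcnc1, Tmem25 and Cog2, at 0.92 to 0.94, of which none was in the other lists. Of the 12 genes nearest to Nefl, Nefm or Nefh, 8 passed the test at 120 days, all of them lower in SOD1 G93A mice, with Map9 at -1.49 (SE 0.27, limma adjusted p = 0.00677) and Rimkla at -1.52 (SE 0.29, limma adjusted p = 0.00849). Of the 5 nearest to Ina none passed, and their values ran below 0 as those of Ina did. The pattern used here holds the genotype difference itself, so these counts describe the choice of neighbours.

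Nefl and Nefm lie next to each other on chromosome 14, Nefh lies on chromosome 11 and Ina on chromosome 19 (RefSeq annotation of the mouse genome). The genes on the far sides of the members were read beside them at 120 days. Dock5, the other neighbour of Nefl, had a log2 fold change of -0.19, Thoc5 and Ap1b1 beside Nefh had -0.53 and -0.21, and Nt5c2 and Pcgf6 beside Ina had -0.40 and -0.50. None of these 5 passed.

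Neuronal markers were read in the same arrays. Of 23 general neuronal markers tested, 7 fell and none rose at 120 days, where 3.86% of all probe sets tested passed in the lower and 3.6% in the higher direction. The median of the 23 was -0.73, with 22 below 0 and Elavl3, a neuronal RNA-binding protein, at 0.38. At 90 days none passed in either direction, and the median was -0.12. Slc6a5, the glycine transporter of inhibitory neurons, fell by 2.25 (SE 0.51, limma adjusted p = 0.0202), Vsnl1, a neuronal calcium sensor, and the RNA-binding proteins Elavl4 and Elavl2 fell too (log2 fold changes of -1.59, -1.51 and -1.23 with adjusted p = 0.0166, 0.0144 and 0.0228). The mean log2 signal of these markers was 8.83 to 9.16 in SOD1 G93A and 9.76 to 9.89 in NTg mice at 120 days, and 9.03 to 9.59 in SOD1 G93A and 9.39 to 9.60 in NTg mice at 90 days. In bulk RNA of this kind, fewer neurons in the captured material and less RNA per neuron cannot be told apart.

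Some motor neuron markers passed at each age. Of 13 tested, 2 fell at 90 days, where 0.023% of all probe sets tested passed in the lower direction, and 4 fell at 120 days, against 3.86%, and none rose. The medians were -0.59 and -1.14. At 90 days Chrna4, an acetylcholine receptor subunit, and Isl1, a transcription factor, had values above 0 (0.68 and 0.10) that did not pass, as did Isl2, a related factor, at 120 days (0.28). Rspo2, a secreted agonist of Wnt signalling, fell at both ages, at -2.86 (SE 0.41, limma adjusted p = 0.0135) at 90 days and -2.70 (SE 0.41, limma adjusted p = 0.00257) at 120 days. Chodl, a marker of fast motor neurons, stood at -3.41 (adjusted p = 0.0487) and -2.56 (adjusted p = 0.0235) at these ages. Mmp9, a protease of the most vulnerable motor neurons, and Esrrg, a nuclear receptor of gamma motor neurons, fell at 120 days, at -1.61 (adjusted p = 0.0293) and -1.73 (adjusted p = 0.0372). Mmp9 was lower still at 90 days, at -2.18 (SE 0.40), but did not pass there (limma adjusted p = 0.0641), and Esrrg was at -0.27. Chat, the enzyme of acetylcholine synthesis, had a value of -0.67 at 120 days that did not pass (adjusted p = 0.193). The mean log2 signal of the 13 markers was 6.26 to 6.53 in SOD1 G93A and 6.82 to 7.81 in NTg mice at 90 days, and 5.69 to 6.08 in SOD1 G93A and 6.68 to 7.46 in NTg mice at 120 days.

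The neurofilament signals were therefore also read relative to the general neuronal markers of the same array. Nefm minus the neuronal mean was lower in SOD1 G93A than in NTg mice by 0.90 log2 units at 90 days and by 0.86 at 120 days, with no overlap of the groups at either age. On this relative scale 1.8% of all probe sets tested had their SOD1 G93A arrays below the NTg arrays at 90 days and 1.7% at 120 days. Nefm minus that mean at 120 days was 1.36 to 1.42 in SOD1 G93A and 1.70 to 2.62 in NTg mice. The same difference at 120 days was -0.37 for Nefl 1426255_at and -0.48 for Nefh, with overlapping groups, and 0.03, 0.25 and -0.09 for Ina 1448991_a_at, 1418178_at and 1448992_at. Of these, Ina 1418178_at had no overlap, with 0.051 to 0.58 in SOD1 G93A and -0.087 to 0.034 in NTg mice, in the direction in which 54.9% of all probe sets tested were apart. With the neuronal mean as a covariate in the limma fit, the log2 fold change of Nefm at 120 days was -1.38, its SE grew to 0.78, and none of the 7 probe sets passed (0 of 7, and 0 of all probe sets tested). With the mean of the motor neuron markers as a covariate, Nefm was at -0.75 (SE 0.56), and again none of the 7 passed. Both covariates separated the genotypes at 120 days without overlap, and the SE of Nefm without either was 0.34.

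Other components of the neuronal cytoskeleton were read from lists of related genes, each by its brightest probe set, with Prph, Ndrg4 and Gfap standing in more than 1 list. Of 21 genes that link, carry or turn over neurofilaments, 5 fell and none rose at 120 days (median -0.44), against 3.86% lower and 3.6% higher over all probe sets tested, and none passed at 90 days (median -0.26). The 5 were the kinesin heavy chains Kif5c (-1.44, SE 0.26, limma adjusted p = 0.00743) and Kif5a (-1.05, SE 0.23, limma adjusted p = 0.0174), the kinesin light chain Klc1 (-1.17, adjusted p = 0.0311), the dynein intermediate chain Dync1i1 (-1.11, adjusted p = 0.0235) and Myo5a, a myosin that binds neurofilaments (-1.25, adjusted p = 0.0222). The other motor and dynactin subunits of the list, Kif5b, Kif3a, Dync1h1 and Dctn1, had values of -0.46, -0.27, -0.77 and -0.44 that did not pass. The linker proteins Dst, Plec and Macf1 had values of -0.22, -0.37 and 0.04 and the calpain protease Capn2 had -0.02, none of which passed.

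Of 17 kinases and phosphatases that act on neurofilament tails, 1 fell and none rose at 120 days (median -0.15), a share near the 3.86% of all probe sets tested that passed in the lower direction, and none passed at 90 days (median -0.11). The 1 was Mapk8, which encodes the stress kinase JNK1 (-1.24, limma adjusted p = 0.0491). Mapk10, the neuronal JNK3, had -1.03 (adjusted p = 0.0682), Cdk5, a proline-directed kinase of the Nefm and Nefh tails, had -0.84 (adjusted p = 0.182), and Gsk3b had -0.14 (adjusted p = 0.785).

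Of 20 tubulins and microtubule-associated proteins, 3 fell and 2 rose at 120 days (median -0.39), beside 3.86% lower and 3.6% higher over all probe sets tested, and none passed at 90 days (median -0.13). Tubb2b, a beta-tubulin, rose by 1.42 (SE 0.29, limma adjusted p = 0.0121) and Stmn4, a stathmin, by 1.11 (adjusted p = 0.0425). Another stathmin, Stmn3, fell by 1.04 (adjusted p = 0.0308), as did Ndrg4 (adjusted p = 0.0386), and Tuba4a, an alpha-tubulin, fell by 0.79 (adjusted p = 0.0419). Tubb3, the neuronal beta-tubulin, was at -0.39 and did not pass (adjusted p = 0.431).

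Of 16 genes of the axon initial segment and the node of Ranvier, 5 fell and 1 rose at 120 days (median -0.70), with 3.86% lower and 3.6% higher over all probe sets tested, and none passed at 90 days (median -0.08). The potassium channel Kcna2 fell by 1.49 (limma adjusted p = 0.00281), and the sodium channels Scn8a and Scn1a fell by 1.12 (adjusted p = 0.0128) and 1.17 (adjusted p = 0.0153). Nfasc, the adhesion molecule neurofascin, of which glia and neurons make different forms, rose by 1.43 (adjusted p = 0.00523).

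Glial and other intermediate filaments were read in the same way. Of 9 tested, 4 rose and none fell at 120 days (median 0.28), where 3.6% of all probe sets tested passed in the higher direction, and none passed at 90 days (median 0.10). Gfap, the filament of reactive astrocytes, rose by 4.79 (SE 0.46, limma adjusted p = 0.000123), Vim, vimentin, by 2.77 (adjusted p = 0.000937), Nes, nestin, by 2.03 (adjusted p = 0.0254) and Lmna, a nuclear lamin, by 1.19 (adjusted p = 0.0321). Prph, peripherin, a neuronal filament that assembles with the neurofilament subunits and is enriched in motor neurons, had a value of -1.94 (SE 0.68) at 120 days that did not pass (limma adjusted p = 0.0947).

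**Figure D5:**
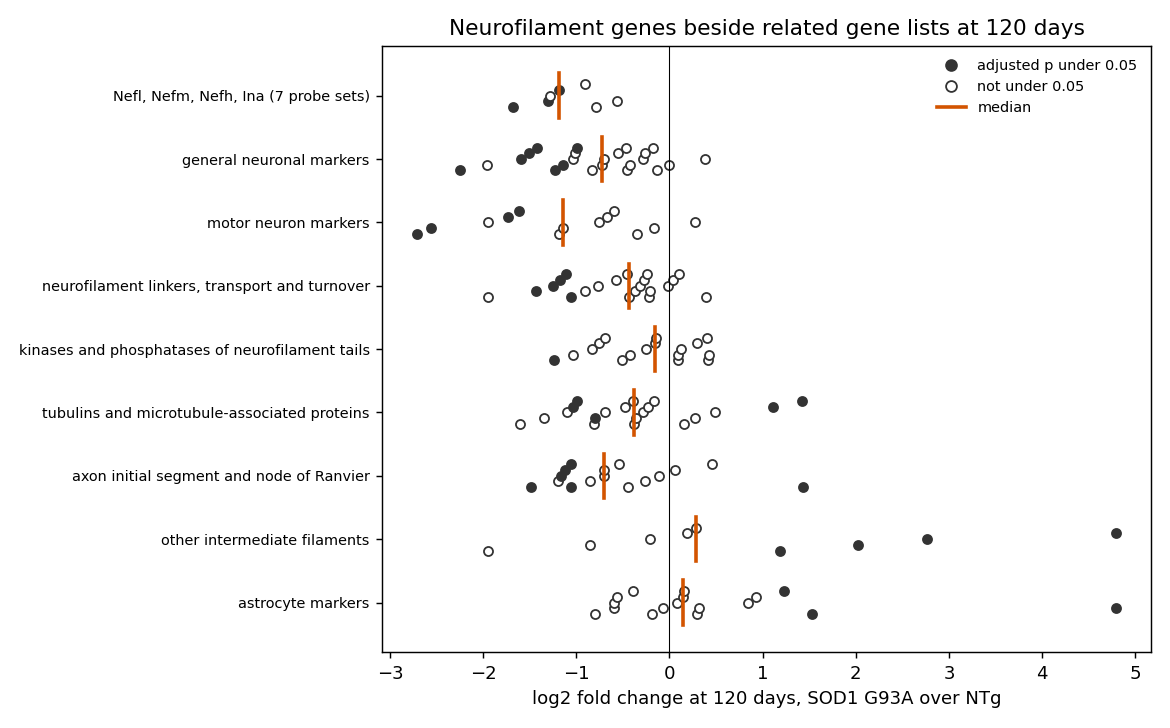
Log2 fold change between SOD1 G93A and NTg mice (SOD1 G93A over NTg) at 120 days for the 7 neurofilament probe sets and for the genes of 8 related lists, 1 point per probe set, filled where the limma adjusted p was under 0.05, with the median as a vertical bar. The neurofilament median of -1.18 lies close to that of the motor neuron markers (-1.14) and below that of the general neuronal markers (-0.73), and Gfap at 4.79 is the point farthest to the right.

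Markers of the other cell types differed between the genotypes in the same arrays. Of 17 astrocyte markers, none passed at 90 days (median 0.15), and Gfap, Aldh1l1 (1.22, limma adjusted p = 0.00820) and Sox9 (1.53, adjusted p = 0.0241) rose at 120 days (median 0.15), against 3.6% of all probe sets tested. At 120 days 7 of the 17 had values below 0 that did not pass, among them Gjb6 (-0.80, limma adjusted p = 0.314) and S100b (-0.60, adjusted p = 0.0999). The mean log2 signal of this list was 9.06 to 10.1 in SOD1 G93A and 9.13 to 9.40 in NTg mice at 120 days, so the defining markers of the labelled cell type were present, with Aldoc, Gja1 and Slc1a2 among them. Presence at such levels was not particular to astrocytes. The oligodendrocyte markers averaged 9.75 to 10.6 in SOD1 G93A and 9.68 to 10.3 in NTg mice at 120 days. Of 14 microglia markers, 4 rose at 90 days (median 1.41), where 0.115% of all probe sets tested passed in the higher direction, and 12 at 120 days (median 1.91), where 3.6% did. The mean was 8.15 to 8.23 in SOD1 G93A and 6.10 to 6.13 in NTg mice at 120 days. The complement gene C1qc and the lysosomal Cd68 had 2.83 and 2.58 at 120 days (limma adjusted p = 9.94e-05 for both). Of 11 oligodendrocyte and 8 endothelial markers, Opalin, a myelin protein, rose at 120 days (1.16, limma adjusted p = 0.0438, beside the same 3.6%), and no other passed at either age. The part of the cell mixture in the neurofilament differences was not tested beyond the neuronal readings above.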

How the data were processed

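Astrocytes were captured from lumbar spinal cord sections, and their RNA went through 2 rounds of linear amplification before hybridisation to Affymetrix Mouse Genome GeneChips. The labels name toluidine blue and the methods ALDH1L1 as the stain. The authors deposited linear MAS5 signal intensities, scaled to a trimmed mean of 100 on each array; the version of MAS5 is not given in the sources used here. The methods describe the PLIER summary for their own comparisons, which these values are not. Present calls and background were not used here. Precision is limited by the 3 arrays per group.

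Signals were taken as log2(intensity + 7), 7 being the 20th percentile of all values, and quantile-normalized within each age, since array medians spanned 0.23 log2 units at 90 days and 0.83 at 120 days, over the limit of 0.5. Quantile normalization goes by rank and therefore acts strongly on the brightest probe sets. From the 45101 probe sets 64 controls were removed, and a probe set was tested if it exceeded the array median on 3 or more arrays, which left 26132. Group means of the 4 groups were fitted with limma 3.58.1 in R 4.3.3 (8 residual degrees of freedom, Benjamini-Hochberg adjustment over all probe sets tested). Fold changes on this scale understate changes of dim probe sets. Comparisons between ages used 1 quantile normalization over all 12 arrays. Platform symbols were updated through RefSeq (GRCm38.p6): 34958 probe sets have 1 symbol, 932 several and 9211 none.

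The labels give animal numbers, so p-values measure the spread between mice. The members, the lists and the tests were chosen with earlier results of these data known. All neurofilament probe sets were named, up to 4 members of smallest p of each list with a few others chosen after their values were seen, and the 5 genes of highest r for each member. In simulated arrays of this design, 66 of 100 probe sets changed 4-fold and 5 of 100 changed 2-fold passed at 120 days, with 2 of 25678 unchanged ones. The simulation changed no other probe sets and drew the noise of each probe set independently. In the data 1948 passed at 120 days, so the adjusted threshold was stricter in the simulation and these rates need not hold for the data. Alternatives covered scaling, offset, filter, block, weights, prior, test, threshold, marker covariates and each array left out.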

Additional observations from a re-analysis of the deposited data

How the results depend on the processing

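The log2 fold changes of the 7 neurofilament probe sets at 120 days stayed below 0 in 188 of 189 fits under other settings. The exception was Ina 1448992_at, at 0.20 with the general neuronal markers as a covariate. Many of the 189 fits could not differ in the estimate. It stayed the same without an array of 90 days, with another filter, prior or test, with the replicate block and with each age fitted alone. The number of the 7 that passed at 120 days was 3. It was 6 with each array centred on its median, 1 with each age fitted alone, 0 with the neuronal or the motor neuron markers as a covariate (the second chosen after seeing the data), and 0 to 4 with each array left out. The count over all probe sets tested, 1948 as reported, moved as well. It was 3500 with median centring, 759 with each age fitted alone and 467 to 2424 with each array left out. Replicate numbers did not pair the mice (r of deviations of same-numbered mice -0.28 to 0.28 at 90 days and -0.07 to 0.04 at 120 days). With them as a block, 1 passed at 120 days, where Nefl 1426255_at (limma adjusted p = 0.0844) and Nefh (0.0575) were lost. The cause of these moves was not tested.

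At the methods' threshold 1 of 7 passed at 90 days and 1 in the difference between the ages, against 0 of 7. At an adjusted p under 0.05, each array left out gave 0 to 0 for both. The methods' threshold was not run with an array left out. Between the ages in SOD1 G93A mice 1 passed. It was 4 under median centring, 0 with an offset of 1, without the filter or with the replicate block, and 0 to 1 with each array left out.

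At 90 days signs turned for values near 0. Ina 1448991_a_at was at -0.15 with array weights, -0.48 with the motor neuron covariate and -0.31 to 0.38 with each array left out (-0.17 without SOD1 G93A replicate 1, -0.31 without NTg replicate 2). Ina 1448992_at was at -0.14 and -0.31 under the same 2 settings, and -0.10 to 0.45 with each array left out. Ina 1418178_at was at 0.045 with the neuronal covariate and -0.36 to 0.25 with each array left out, among them 0.20, 0.13, 0.25 and 0.08. Nefl 1454672_at was at -0.57 to 0.065 with each array left out. Nefm stayed below 0, at -1.25 to -0.67 with each array left out and -1.25 to -0.29 over all alternatives.

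Over all probe sets tested, 36 passed at 90 days and 1948 at 120 days, of which 51.7% were lower. Over the alternatives these counts were 0 to 462 and 0 to 3500, the highest with median centring at 120 days, where 81.0% were lower. The 3 mice per group and signals without background limit what small differences can be seen.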
